A study of Mus musculus with 5 samples.

Results

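The genes described here are 9 markers of cholangiocytes, the epithelial cells that line bile ducts, and of the ductular cells that appear in injured liver. They were taken by gene symbol from a deposited table of 22287 genes, and all 9 were found: Krt7, Krt8, Krt18, Krt19, Krt23, Sox9, Spp1, Cldn7 and Tspan8. Transcripts of mouse liver tumours were measured by RNA sequencing in 2 wild-type (WT) libraries and 3 lnc-CTHCC-/- (KO) libraries, labelled as lacking a long non-coding RNA whose own transcript was not analysed here. Every sample, WT and KO alike, came from C57BL/6 mice that had received DEN, a liver carcinogen, together with CCl4, a liver toxicant, over 5 months. The labels used here state neither the age of the mice, nor how the knockout was made, nor whether the libraries of a genotype came from separate animals. P-values therefore measure the spread between these libraries, which may be technical. Bulk RNA cannot tell fewer cells of a type apart from less RNA per cell.

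Keratins are the intermediate filament proteins of epithelia and assemble as pairs of 1 type I and 1 type II chain. Krt8 and Krt18 form the keratin network of hepatocytes and are also made by cholangiocytes, whereas Krt7 and Krt19 are classical markers that separate bile duct cells from hepatocytes. Sox9 is a transcription factor of the biliary lineage that also appears in hepatocytes turning ductular after injury. Spp1 encodes osteopontin, a secreted glycoprotein made by ductular cells and also by activated macrophages.

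Krt8 and Krt18 lie side by side on chromosome 15 with 23697 bases between them, in opposite orientation and with no other protein-coding gene in the gap (GENCODE vM21 on GRCm38, the assembly of mm10). The sequences below are the upstream stretches of this filament pair and of Spp1, the gene with the widest interval of its genotype difference among the markers tested. They come from RefSeq (GRCm38.p6), are written 5′ to 3′ on the strand of the gene, and stop before the first annotated exon. Capitals mark matches to the 5 motifs listed after them.
Krt8, chr15:102004483-102004592, minus strand: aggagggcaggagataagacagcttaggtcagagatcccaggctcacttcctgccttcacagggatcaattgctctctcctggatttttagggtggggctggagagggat
Krt18, chr15:102027966-102028179, plus strand: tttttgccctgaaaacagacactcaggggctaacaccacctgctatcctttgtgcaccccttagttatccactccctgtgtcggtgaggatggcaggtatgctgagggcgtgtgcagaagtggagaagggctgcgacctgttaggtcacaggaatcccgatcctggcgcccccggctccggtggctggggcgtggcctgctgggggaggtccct
Spp1, chr5:104434861-104435110, plus strand: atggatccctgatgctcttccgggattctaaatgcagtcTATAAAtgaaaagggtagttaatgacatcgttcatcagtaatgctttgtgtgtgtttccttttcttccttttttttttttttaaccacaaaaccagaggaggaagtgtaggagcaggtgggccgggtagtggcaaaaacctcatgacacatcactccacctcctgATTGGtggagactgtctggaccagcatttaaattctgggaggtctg

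Upstream sequence was found for 7 of the 9 markers, in 9 windows of 250 bases; Krt19 and Sox9 had no entry. Both strands were searched for the TATA box (letters TATAAA), the CCAAT box (letters CCAAT), the GC box (letters GGGCGG), the core of the TEAD site (letters GGAATG) and the AP-1 site (letters TGACTCA). The first Spp1 window, printed above, held TATAAA, 211 to 206 bases before the start, and CCAAT on the opposite strand, 46 to 42 bases before it, and a second Spp1 window held none of the 5. The Krt7 window held GGGCGG at 4 places, a first Cldn7 window GGAATG and a second one GGGCGG. The windows end at RefSeq starts, and the Krt7 window, 101412153 to 101412402, lay inside the GENCODE gene. Except for the first windows of Spp1 and Cldn7, each window overlapped a GENCODE exon, so not all of this sequence lies upstream of a gene. The windows of Krt8, Krt18, Krt23 and Tspan8 held none of the 5. Of 32851 windows of the same length over all genes, TATAAA was in 12.4%, CCAAT in 33.8%, GGGCGG in 32.7%, GGAATG in 12.6% and TGACTCA in 4.46%. A match describes letters only and is not a site of binding.

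The 9 markers spanned a wide range of abundance, and no difference between genotypes passed the test. Values are FPKM, fragment counts divided by gene length and library size, so levels can be compared between genes per length. The libraries held an estimated 23900000 (WT 1) to 28400000 (KO 2) fragments. Spp1, Krt18, Krt8 and Tspan8 had means over the 5 libraries of 277, 248, 164 and 102 FPKM, each above at least 98.0% of all genes in the table. Krt23 was intermediate at 6.80 FPKM. Sox9, Krt19, Cldn7 and Krt7 had means of 1.84, 1.30, 1.02 and 0.420 FPKM. The ranges over the libraries overlapped between Spp1 and Krt18, Sox9 and Krt19, Krt19 and Cldn7, and Cldn7 and Krt7. They were apart between Krt18 and Krt8, Krt8 and Tspan8, Tspan8 and Krt23, and Krt23 and Sox9.

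**Figure D1:**
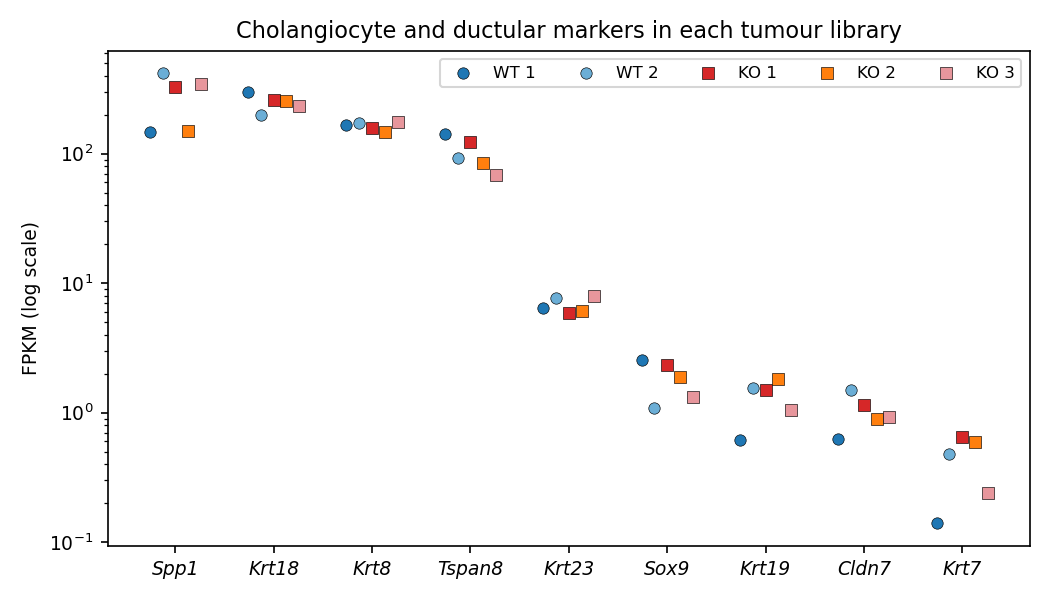
FPKM of the 9 markers in each library on a log axis, ordered by the mean over the 5 libraries; circles are WT and squares are KO libraries. Spp1, Krt18, Krt8 and Tspan8 lie between 68.5 and 418 FPKM, Krt23 between 5.88 and 7.94, and the other 4 between 0.140 and 2.56, with WT and KO intermixed for each gene.

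The tissue label was checked against marker genes. The 9 hepatocyte markers found in the table were high in all libraries, with a summed level of 99029 to 128989 FPKM, most of it from Alb, the gene of serum albumin. Markers that define cholangiocytes were low. Cftr, the chloride channel of the bile duct surface, was at 0.03 to 0.09 FPKM, and Sctr, the secretin receptor, at 0 to 0.04 FPKM. Epcam, a surface protein of biliary epithelium, was at 0.72 to 1.87 FPKM, close to Krt19. Krt8, Krt18, Spp1 and Tspan8 were thus abundant in libraries in which Cftr, Sctr, Krt7 and Krt19 were scarce.

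For the comparison of genotypes, log2(FPKM + 1) was fitted by limma over the 10132 genes with a mean of at least 1 FPKM, and p-values were adjusted over all of them. Differences are KO minus WT of these log2 values, and the added 1 makes them smaller for low genes. Of the 9 markers, 8 were tested and 0 passed an adjusted p of 0.05, beside 0.00987% of all genes tested (1 gene, higher in KO); 0 of the 8 had an unadjusted p under 0.05 by limma, beside 3.23% of all genes. Without WT 2 that count was 1 of 7, Krt19 (0.59, unadjusted p = 0.0460, limma adjusted p = 0.438), where 1143 of all 10092 genes tested had one. In 0 of the 8 did the WT and KO libraries lie apart, beside 15.1% of all genes tested. Of the 8 differences 4 were above and 4 below 0, with a median of 0.00, beside 0.05 for all genes tested. After median-ratio rescaling 1 of 7 was above 0, and after quantile normalization 2 of 8. Krt18 and Spp1 were above 0 on the log2 scale, though their mean FPKM was slightly lower in KO (0.996 and 0.970 of WT). The 8 adjusted p-values were all 0.999. With 2 and 3 libraries the smallest two-sided p of an exact permutation test is 0.1, and no such test was used.

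**Figure D2:**
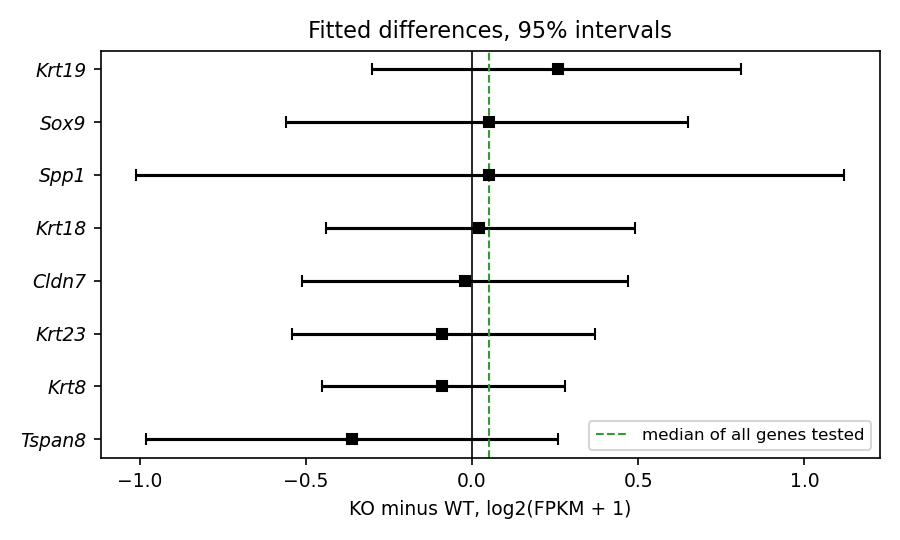
Fitted difference in log2(FPKM + 1), KO minus WT, (squares) with 95% intervals (bars) for the 8 markers tested; the dashed line is the median of all genes tested, 0.05. Every interval covers 0, and the widest is that of Spp1, from -1.01 to 1.12.

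Krt8 (chromosome 15, 101996698 to 102004482, minus strand, 9 exons) had 167 and 174 FPKM in WT against 157, 148 and 177 FPKM in KO. The lowest and the highest library were both KO, and the 5 values lay within a range of 1.19-fold. Its mean was 170.3 ± 5.08 FPKM (SD, n = 2) for WT against 161 ± 14.7 FPKM (SD, n = 3) for KO. The log2 difference was -0.09 (95% interval -0.45 to 0.28).

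Krt18 (chromosome 15, 102028180 to 102032027, plus strand, 7 exons), the partner chain of Krt8, had 300.2 and 198 FPKM in WT against 258, 254 and 232 FPKM in KO. Both extremes were WT libraries, with all 3 KO values between them. The means were 249 ± 72.4 FPKM (SD, n = 2) for WT against 248 ± 14.2 FPKM (SD, n = 3) for KO, and the log2 difference was 0.02 (95% interval -0.44 to 0.49). That difference was 0.32 without WT 1, -0.28 without WT 2 and -0.01 without KO 1. The ratio of Krt8 to Krt18 was 0.556 in WT 1 and 0.879 in WT 2, and 0.608, 0.583 and 0.763 in KO. The KO ratios again lay between those of the WT libraries. GENCODE lists a long non-coding RNA gene, Gm36026, that overlaps Krt8 on the opposite strand, and a processed Krt8 pseudogene. Reads that could belong to either make the Krt8 values uncertain, and no strand setting is stated.

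Krt7 (chromosome 15, 101411043 to 101430313, plus strand), the type II keratin of bile ducts, was the lowest marker. It had 0.14 and 0.48 FPKM in WT against 0.65, 0.59 and 0.24 FPKM in KO, with WT 1 lowest and KO 1 highest, so the genotypes overlapped. At the estimated depth 0.14 FPKM stands for about 14 to 24 fragments, depending on the gene length used. Its mean of 0.310 ± 0.240 FPKM (SD, n = 2) for WT against 0.493 ± 0.221 FPKM (SD, n = 3) for KO put it below the expression filter. Fitted without that filter, it had a log2 difference of 0.19 (95% interval -0.22 to 0.60, limma adjusted p = 0.997). An antisense gene overlaps Krt7, so its low values are uncertain as far as strand was not used.

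Krt19 (chromosome 11, 100140810 to 100148665, minus strand), the type I keratin of bile ducts, had 0.61 and 1.56 FPKM in WT against 1.49, 1.81 and 1.05 FPKM in KO. WT 1 was below the other 4 libraries, and WT 2 lay within the range of KO. The log2 difference was 0.26 (95% interval -0.30 to 0.81), the largest positive one of the 8. It was -0.08 without WT 1 and 0.59 without WT 2. The value of WT 1 rests on about 23 to 27 fragments, whose counting interval of 0.387 to 0.915 FPKM lies below that of WT 2, 1.22 to 1.98 FPKM. The 2 WT libraries thus differed by more than counting error. Per length, Krt18 was 492 times as abundant as Krt19 in WT 1, 127 times in WT 2 and 141 to 221 times in KO.

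Krt23 (chromosome 11, 99477974 to 99493137, minus strand) is a type I keratin of ductular cells and of stressed hepatocytes. It had 6.41 and 7.73 FPKM in WT against 5.88, 6.06 and 7.94 FPKM in KO. The lowest and the highest values were both KO, and the range was 1.35-fold. The log2 difference was -0.09 (95% interval -0.54 to 0.37), and it was 0.03 without WT 2.

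Sox9 (chromosome 11, 112782224 to 112787760, plus strand, 3 exons) had 2.56 and 1.09 FPKM in WT against 2.33, 1.90 and 1.31 FPKM in KO. The WT libraries were the highest and the lowest of the 5, and KO filled the span between them. The log2 difference was 0.05 (95% interval -0.56 to 0.65), 0.43 without WT 1, -0.34 without WT 2 and -0.08 without KO 1. About 253 fragments in WT 1 and 126 in WT 2 stand behind these values, with counting intervals of 2.25 to 2.89 and 0.909 to 1.30 FPKM. The gap between the WT libraries therefore exceeded counting error.

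Spp1 (chromosome 5, 104435118 to 104441050, plus strand) was the most abundant marker and varied widely within each genotype. It had 146 and 418 FPKM in WT against 327, 149 and 344 FPKM in KO. WT 1 and KO 2 were lowest, and WT 2, KO 1 and KO 3 were higher. The means were 282 ± 193 FPKM (SD, n = 2) for WT against 273 ± 108 FPKM (SD, n = 3) for KO. The log2 difference was 0.05 with a 95% interval of -1.01 to 1.12, an interval that reaches about 2-fold in either direction. The difference was -0.71 without WT 1, 0.81 without WT 2, -0.12 without KO 1, 0.44 without KO 2 and -0.16 without KO 3. GENCODE lists an unproven gene model, Gm42793, that overlaps Spp1 on the same strand.

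Cldn7 (chromosome 11, 69964779 to 69967885, plus strand), a tight junction claudin, had 0.63 and 1.49 FPKM in WT against 1.15, 0.90 and 0.92 FPKM in KO. The WT libraries were again the extremes. The log2 difference was -0.02 (95% interval -0.51 to 0.47), -0.33 without WT 1, 0.01 without KO 2 and 0.00 (positive before rounding) without KO 3. With a mean of 1.02 FPKM it lay just above the filter, and without WT 2 or KO 1 it was no longer tested.

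Tspan8 (chromosome 10, 115816832 to 115849893, plus strand), a tetraspanin of epithelial membranes, had 142 and 92.8 FPKM in WT against 122, 84.3 and 68.5 FPKM in KO. WT 1 was highest, and KO 2 and KO 3 lay below both WT libraries while KO 1 lay between them. The means were 117 ± 35 FPKM (SD, n = 2) for WT and 91.7 ± 27.7 FPKM (SD, n = 3) for KO. The log2 difference of -0.36 (95% interval -0.98 to 0.26) was the largest negative one, and it kept its sign in every alternative run, from -0.67 without WT 2 to -0.06 without WT 1. It did not pass the test (unadjusted p = 0.216, limma adjusted p = 0.999). An antisense gene overlaps Tspan8 as well.

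**Figure D3:**
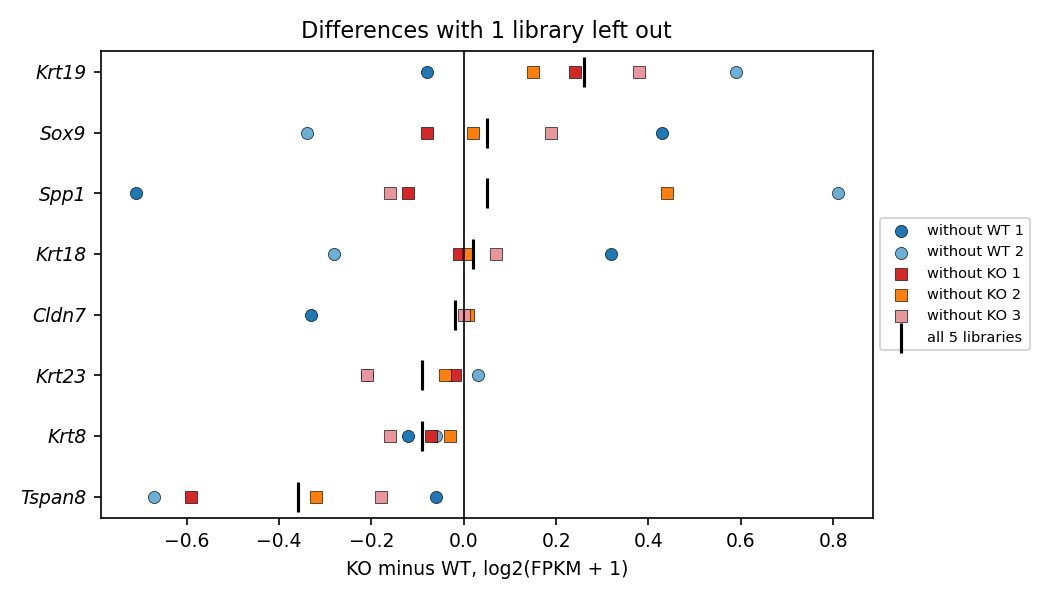
Difference in log2(FPKM + 1), KO minus WT, for the 8 markers with all 5 libraries (black bars) and with each library left out (symbols). Leaving out WT 1 or WT 2 moves Spp1 to -0.71 or 0.81, Krt18 to 0.32 or -0.28 and Sox9 to 0.43 or -0.34; Krt8 stays between -0.16 and -0.03.

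The markers did not vary as 1 block across libraries. WT 1 was the lowest library for Krt7, Krt19, Spp1 and Cldn7 and the highest for Krt18, Sox9 and Tspan8. WT 2 was the lowest for Krt18 and Sox9 and the highest for Spp1 and Cldn7. Spp1 and Sox9, both ductular markers, thus stood in opposite order in the WT libraries, with 56.9 times as much Spp1 as Sox9 in WT 1 and 384 times in WT 2. In KO that ratio was 141, 78.5 and 262.

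In the authors' deposited table, 0 of the 9 markers have a false discovery rate under 0.05, which 36 genes of the table do. The smallest p-value among them in the authors' deposited table is that of Tspan8, 0.134, with a log2 fold change of -0.36. Krt7 has the largest log2 fold change there, 0.67 (p = 0.325 in the authors' deposited table).

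Markers of other cells that make the same transcripts were set beside these values. The 12 macrophage markers, all detected, summed to 211 and 242 FPKM in WT and to 253, 184 and 264 FPKM in KO. The sum was lowest in WT 1 and KO 2, the libraries in which Spp1 was lowest. In 7 of the 12 these were also the 2 lowest libraries, as they were in 26.7% of all genes tested and in 3 of 9 hepatocyte markers. They were so in 2 of 10 stellate cell and fibroblast, 1 of 7 endothelial, 0 of 6 mesothelial and 0 of 7 detected exocrine pancreas markers. Of the detected gut and gallbladder markers it was 3 of 7, namely Muc13, Lgals4 and Tff2, which all averaged below 1 FPKM. Csf1r, the receptor of the macrophage growth factor, had 7.35 and 14.3 FPKM in WT against 14.8, 6.03 and 12.7 FPKM in KO. Gpnmb, a glycoprotein of lipid-laden macrophages, had 2.70 and 5.01 FPKM in WT against 3.82, 1.39 and 5.22 FPKM in KO. Both were lowest in WT 1 and KO 2, as Spp1 was. The other 5 markers were ordered differently: Marco and Clec4f were lowest in WT 2, Cd5l in KO 2 and then WT 2, Lgals3 in KO 2 and then KO 1, and Cd9 was lowest in KO 3 and highest in KO 2. The part of macrophages in the Spp1 values was not tested.

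The 6 markers of mesothelium, the cell layer that covers the liver and that also makes Krt7 and Krt19, were low but detected in every library. They summed to 3.23 and 4.79 FPKM in WT and to 9.19, 8.38 and 3.34 FPKM in KO. The order of the libraries in this sum, from WT 1 through KO 3, WT 2 and KO 2 to KO 1, was the same as for Krt7. Counting does not resolve the Krt7 order: the intervals of WT 1 and KO 3 overlap (0.0782 to 0.240 and 0.161 to 0.350 FPKM). Those of WT 2, KO 2 and KO 1 overlap too (0.362 to 0.626, 0.461 to 0.751 and 0.510 to 0.813 FPKM). For Krt19 the order was not that of the sum: KO 1 lay below WT 2 and KO 2 was highest, again with overlapping intervals. Msln, mesothelin, had 1.29 and 1.93 FPKM in WT against 3.50, 3.18 and 1.14 FPKM in KO. Of the single markers, Upk3b had the order of Krt7. Msln, Upk1b and Lrrn4 were lowest in KO 3, Gpm6a had WT 2 below KO 3, and Wt1 was highest in KO 2. How many of all genes share that order was not counted. The part of mesothelium in the Krt7 and Krt19 values was not tested. Of the 8 exocrine pancreas markers 7 had a mean below 1 FPKM, the exception being Cela1.

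Of the 10 gut and gallbladder markers 3 (Muc2, Muc5b and Cdx2) were listed at 0 in all libraries, while Fabp2, a fatty acid binding protein of gut, averaged 34.4 FPKM and Cdh17, a cadherin of gut and bile duct epithelium, 18.3 FPKM. The 4 tested had a median log2 difference of -0.56, with 1 higher and 3 lower in KO and none past the test. Vil1, villin of the brush border of gut and bile duct cells, had 2.20 and 4.59 FPKM in WT against 0.30, 0.04 and 0.11 FPKM in KO. Its log2 difference was -1.89 (unadjusted p = 4.38e-05, limma adjusted p = 0.111). Without WT 1 the Vil1 difference was -2.29, a fit in which WT 2 was the only WT library. Cdh17 had 16.9 and 31.1 FPKM in WT against 14.7, 12.7 and 16.0 FPKM in KO, all KO values below WT. Krt20 and Fabp2 of the same list overlapped between the genotypes. None of the 9 markers had its KO values wholly below WT as Vil1 and Cdh17 did. Only 5.29% of all genes tested did, so a count of 0 does not set the markers apart.

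**Figure D4:**
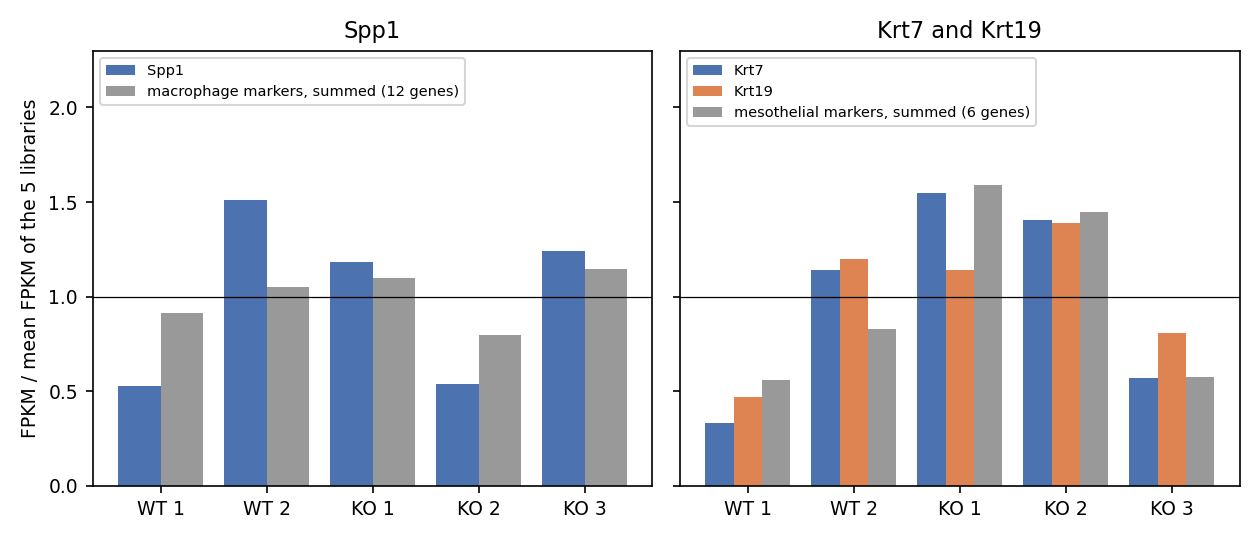
Level in each library divided by the mean of the 5 libraries, for Spp1 beside the summed macrophage markers (left) and for Krt7 and Krt19 beside the summed mesothelial markers (right); the line marks the mean. Spp1 and the macrophage sum are both lowest in WT 1 and KO 2, and Krt7 and the mesothelial sum are both highest in KO 1 and KO 2.

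The genes whose values over the 5 libraries were most like those of Krt19 and Spp1 were sought among all genes tested, by the root mean square difference of centred log2(FPKM + 1) values. For Krt19 they were Dhx30 (0.0330), Rpl10 (0.0331), Adamts1 (0.0391), Fam149b (0.0455) and Spata5 (0.0653). For Spp1 they were Ms4a6d (0.0740), Cyp7a1 (0.104), Mup21 (0.185), Acot1 (0.191) and Vcam1 (0.20). Ms4a6d had 1.09 and 4.40 FPKM in WT against 3.10, 0.87 and 3.31 FPKM in KO, with the same low libraries as Spp1. Cyp7a1, Mup21, Acot1 and Vcam1 had these low libraries too, which follows from how the genes were chosen. Likeness over 5 libraries is a description of these values.

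Other biliary and ductular genes were compared as a list of 26, all in the table, of which 15 were tested. None passed the test, and 3 had an unadjusted p under 0.05 by limma. In 13 of the 15 the KO mean was above the WT mean, and in 2 below it, where 61.4% of all genes tested were higher. The median log2 difference was 0.33, beside 0.05 for all genes tested. The KO libraries lay wholly above WT in 5 genes and wholly below in 1; over all genes tested this was 9.78% and 5.29%. With 1 library left out, 12 or 13 of the 15 were higher and the median lay between 0.21 (without KO 1, all genes 0.02) and 0.43 (without KO 2, all genes 0.06). The summed level of the list was highest in KO 1 at 3988 FPKM, most of it Clu, and so were the sums of stellate cell and fibroblast, endothelial and mesothelial markers, at 158, 60.6 and 9.19 FPKM. The 3 mesothelial markers tested were all higher in KO, with a median of 0.40. The part of these cells in the list was not tested.

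Ddr1, a collagen-binding receptor kinase, had 6.39 and 5.11 FPKM in WT against 11.3, 8.39 and 7.67 FPKM in KO, a log2 difference of 0.57 (limma adjusted p = 0.999). Clu, the secreted chaperone clusterin, which hepatocytes also make, had 1957 and 2393 FPKM in WT against 3633, 2795 and 2918 FPKM in KO, a log2 difference of 0.52. Bicc1, an RNA-binding protein of duct and tubule cells, had 3.46 and 4.18 FPKM in WT against 7.49, 4.90 and 5.02 FPKM in KO. In these 3 genes the genotypes did not overlap. Mmp7, a matrix protease of ductular cells, had 0.43 and 1.44 FPKM in WT against 2.43, 1.35 and 3.77 FPKM in KO, and the genotypes overlapped.

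Genes of cholangiocyte secretion and the primary cilium gave 7 tested genes of 13, with none past the test, 5 higher and 2 lower in KO and a median of 0.19 (0.10 without KO 1). Pkd2, the cation channel polycystin 2, had 2.44 and 2.90 FPKM in WT against 5.37, 4.17 and 4.11 FPKM in KO. Its log2 difference of 0.59 had an unadjusted p of 0.0150 and an adjusted p of 0.999 by limma, and the genotypes did not overlap. Slc10a2, the bile acid carrier of the apical membrane, had a log2 difference of 0.51, Aqp1, a water channel, of 0.26 and Pkd1, polycystin 1, of 0.19.

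The Notch pathway, through which Jag1 on neighbouring cells switches on Sox9 during duct formation, gave 9 tested genes of 16. None passed, 8 were higher and 1 was lower in KO (7 and 2 after median-ratio rescaling or quantile normalization), and the median was 0.16. Jag1, the ligand, had 0.63 and 0.86 FPKM in WT against 1.80, 1.25 and 1.01 FPKM in KO, a log2 difference of 0.42 (limma adjusted p = 0.999). The difference was 0.32 for Maml1, a coactivator, -0.31 for Lfng, which modifies the receptors, and 0.22 for Dll4, another ligand. The median of the list ranged from 0.04 without KO 1 (5 of 8 genes higher, all genes 0.02) to 0.28 without WT 1 (6 of 9 higher, all genes -0.07). Summed stellate cell and fibroblast markers (94.0 and 118 FPKM in WT, 158, 102 and 118 FPKM in KO) and endothelial markers (39.2 and 41.0 FPKM in WT, 60.6, 42.0 and 42.2 FPKM in KO) were also highest in KO 1; their part in the list was not tested.

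Receptors of osteopontin gave 7 tested genes of 10, none past the test, 5 higher and 2 lower, with a median of 0.20. Itgb1, the integrin beta 1 chain, had 47.2 and 61.9 FPKM in WT against 73.1, 63.6 and 64.4 FPKM in KO, a log2 difference of 0.30. Cd44, a receptor of hyaluronan and osteopontin, had 3.49 and 6.91 FPKM in WT against 4.45, 2.27 and 4.36 FPKM in KO, lowest in KO 2 and WT 1 as Spp1 was. The difference was -0.38 for Cd44, 0.44 for Itga8 and 0.23 for Itga9. Without WT 1 the median of the list was 0.06, beside -0.07 for all genes, and without WT 2 it was 0.28, beside 0.16.

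Keratin linkers and desmosomal proteins, to which keratin filaments attach, gave 8 tested genes of 10, none past the test, 6 higher and 2 lower, with a median of 0.18 (0.06 without WT 1, 0.38 without WT 2). Dsp, desmoplakin, had 4.04 and 4.19 FPKM in WT against 6.90, 4.93 and 5.89 FPKM in KO, a log2 difference of 0.42. Dsg2, Pkp2 and Dsc2, further desmosome proteins, had differences of 0.40, 0.28 and 0.24. Proteins found in aggregates with Krt8 and Krt18 in injured hepatocytes gave 7 tested genes of 7, none past the test, 6 higher and 1 lower (4 and 3 after median-ratio rescaling). Their median was 0.24, and it was 0.08 without WT 1 or KO 1, 0.11 without KO 2, 0.48 without WT 2 and 0.44 without KO 3. Among them Hspb1, a small heat shock protein, had a difference of 0.49, Tgm2, a transglutaminase, of 0.30, Cryab, another small heat shock protein, of 0.24 and Hspa1a, an inducible Hsp70, of 0.56. Hspa1a had 0.60 and 0.44 FPKM in WT against 1.10, 3.52 and 0.18 FPKM in KO, so KO 2 alone stood high. This gene is nearly identical to Hspa1b, so its reads are uncertain. Hspa1b was the 1 lower gene of the list, with a difference of -0.18. It had 5.75 and 3.66 FPKM in WT against 6.08, 8.37 and 0.82 FPKM in KO.

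**Figure D5:**
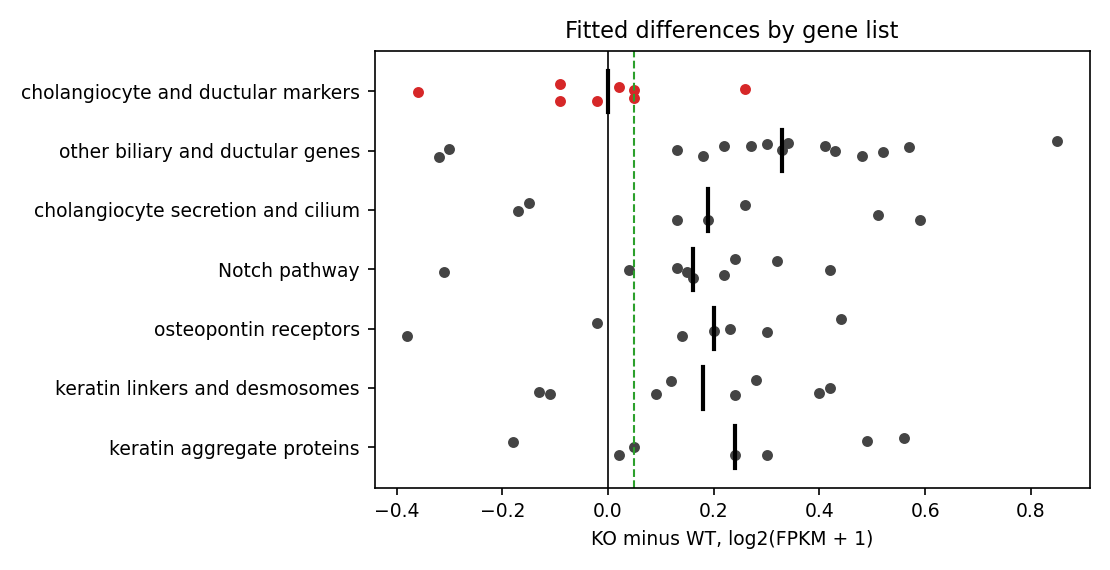
Fitted difference in log2(FPKM + 1), KO minus WT, for each tested gene of the 9 markers (red) and of the 6 related lists (grey); black bars are list medians and the dashed line is the median of all genes tested, 0.05. The markers centre on 0.00, and the medians of the other lists lie between 0.16 and 0.33.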

How the data were processed

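Per the labels' protocols, total RNA was extracted with Trizol and made into Illumina libraries. Tools listed without role or order, per the submitters' processing notes, are HISAT2, StringTie, DESeq2, limma and bcl2fastq 2.0; the build is mm10. Per the file headers, the authors deposited FPKM per library and gene (rounded to 2 decimals), mean FPKM per genotype, the log2 fold change of KO over WT, and a p-value and false discovery rate; which tool gave these is not stated.

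The markers and lists were chosen with earlier results of these data known. Log2(FPKM + 1) of genes averaging 1 FPKM or more was compared by limma 3.58.1 in R 4.3.3 (eBayes with trend, two-sided tests, Benjamini-Hochberg over 10132 genes, threshold 0.05), and the fit was tested on simulated data. Per related list, up to 4 genes by the smallest unadjusted p were named, per family the 3 of highest mean, and 5 genes most like Krt19 and Spp1, without predicted genes. Of the deposited identifiers 22253 were in GENCODE vM21.

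The depth was estimated from steps of 1 fragment in low FPKM of genes with 1 transcript shorter than 700 bases. It came to 23900000 fragments in WT 1, 27900000 in WT 2, 28300000 in KO 1, 28400000 in KO 2 and 28300000 in KO 3. In genes of 700 to 1000 bases not used for it, 82.5% to 89.6% of values of up to 12 fragments were within 0.2 of a whole number, where 40.0% would be by chance. Counting intervals (95%, exact Poisson) use the longest transcript and cover counting error only. Alternatives were pseudocounts of 0.1 and 5, no filter, a filter at 5 FPKM, 3 rescalings, no trend, robust fitting, the replicate block and each library left out. Figures were drawn with matplotlib 3.10.9.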

Additional observations from a re-analysis of the deposited data

How the results depend on the processing

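The count of markers past the threshold was 0 and their median log2 difference moved by less than the spread within genotypes in every alternative run. Over all genes limma called 1 gene. It called 0 with a pseudocount of 5 (311 genes with an unadjusted p under 0.05), quantile normalization (428), median-ratio rescaling (409), a common FPKM sum (317), a filter at 5 FPKM (167) or no filter (676). It called 3 with robust fitting, 62 with the replicate block, and 0 to 17 with 1 library left out, 17 of them without WT 1; the cause was not tested. Signs turned for differences near 0: Cldn7 was 0.01 with a pseudocount of 0.1; Krt18, Sox9 and Spp1 were -0.04, -0.01 and -0.01 after median-ratio rescaling; Krt18 and Sox9 were -0.01 and -0.04 after quantile normalization. With 1 library left out the range was -0.28 to 0.32 for Krt18, -0.08 to 0.59 for Krt19, -0.21 to 0.03 for Krt23, -0.34 to 0.43 for Sox9, -0.71 to 0.81 for Spp1 and -0.33 to 0.01 for Cldn7. With the replicate block, Spp1 was -0.16 and Cldn7 0.00. In that block KO 3 has no WT partner and adds nothing to the difference. The labels do not say that a number marks a shared animal or day. Deviations of same-numbered libraries correlated at 0.088 and -0.241, and those of WT 1 and WT 2 with KO 3 at -0.319 and 0.319. The deviations of 2 WT libraries mirror each other, so these values cannot show whether the numbers mark pairs. The leave-out and rescaled counts of the related lists were chosen after seeing the data. Depth limits Krt7, Krt19 and Cldn7 most.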

Other observations

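Outside the markers, most keratins were at 0 or low. Of the 44 other keratin genes listed, 32 were at 0 in all libraries, and Krt20, a type I keratin of gut epithelium, was the 1 tested. It had 6.88 and 1.96 FPKM in WT against 1.88, 1.93 and 3.90 FPKM in KO, highest in WT 1, with a log2 difference of -0.48 that was 0.22 without WT 1. Krt5 and Krt14, the keratin pair of basal epithelium, had means over the libraries of 0.874 and 0.340 FPKM. Krt20 averaged 3.31 FPKM, above the markers Krt19 (1.30 FPKM) and Krt7 (0.420 FPKM), and Krt5 was above Krt7.

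Claudins and tetraspanins other than Cldn7 and Tspan8 had mostly higher means in KO, with none past the test. Of 6 claudins tested 5 were higher (4 after median-ratio rescaling), with a median of 0.22. Cldn2, a pore-forming claudin, had 20.9 and 16.3 FPKM in WT against 27.8, 31.5 and 34.4 FPKM in KO, a log2 difference of 0.72 (unadjusted p = 0.00403, limma adjusted p = 0.972). Cldn3 and Cldn1, the most abundant claudins, had differences of 0.30 and 0.26. The 12 tetraspanins tested were all higher in KO, with a median of 0.27 (11 of 12 after median-ratio rescaling, 9 of 12 without WT 2), whereas Tspan8 had a difference of -0.36. Tspan4 had 73.3 and 67.2 FPKM in WT against 103, 102 and 92.9 FPKM in KO, a log2 difference of 0.49 (limma adjusted p = 0.999). Over all genes tested 61.4% were higher in KO.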
